A study of Mus musculus with 22 samples.

Results

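The immune gene families described here are Klra, Klrb, H2-, Birc1, Defcr, Ifi20 and Ear, whose members often differ in number or sequence between inbred mouse strains. Members were chosen by name alone, as autosomal genes whose name in the array files starts with one of these prefixes or with Skint (for Ear, followed by a digit). The rule found 40 of 24697 autosomal genes, measured by 144 of 220065 autosomal probes. Klra has 4 genes on 58 probes, Klrb 2 genes on 4 probes, H2- 24 genes on 37 probes and Birc1 4 genes on 21 probes. Ifi20 has 3 genes on 21 probes, Ear 2 genes on 2 probes and Defcr 1 gene on 1 probe, while no gene name starts with Skint. A total of 19 members rest on 1 probe, 15 of them in H2-, and these are marked as such where they are named.

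Array comparative genomic hybridisation was run on genomic DNA of thymocytes from 22 untreated Atm-deficient mice, 1 mouse per array, against thymocyte DNA of wildtype mice. Atm encodes a kinase that responds to double-strand breaks of DNA, and mice lacking it are prone to thymic lymphoma. The mutant DNA carried Cy5 and the wildtype DNA Cy3 on every array, so dye and genotype cannot be told apart. By the labels, 8 mice had a thymic T-cell lymphoma and 14 had no finding visible to the naked eye in the thymus. All 22 are described as lacking Atm, and the labels name no other allele and no agent. The labels give neither strain, age nor sex, do not say which part of Atm was altered, and do not say whether 1 wildtype DNA served all arrays. A log2 ratio of 0 means as much signal from the mutant as from the wildtype DNA. DNA from another tissue of the same mice was not analysed here, so for a single mouse an inherited difference and one acquired in the thymus cannot be told apart.

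The Klra genes encode lectin-like receptors by which natural killer cells read MHC class I on other cells, and the Klrb genes encode related receptors for Clec2 ligands in the same gene complex. The H2- genes form the mouse MHC, Birc1 genes (now called Naip) encode inflammasome sensors of bacterial proteins, and Defcr genes encode antimicrobial peptides of the Paneth cells of the gut. The Ifi20 genes encode interferon-inducible sensors of DNA, and the Ear genes encode ribonucleases of eosinophils. In several of these families near-identical copies lie side by side, and copy number is known to differ between inbred strains. Not every member is such a copy, and the H2- prefix also takes in H2-Ke2, now named Pfdn6. A probe for such copies can bind more than 1 of them, and how many places each probe matches was not tested.

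The sequences of 8 member probes are given because the results turn on them. Ear4, Ear11 and Defcr4 each rest on the single probe shown. The other 5 were chosen after their values were seen: the H2-Oa probe lost signal from the mutant DNA alone in 4 arrays, the H2-Eb1, Klra2 and H2-T3 probes lost signal from both DNAs or mainly from the mutant DNA in the same arrays, and the Klra22 probe carries a long run of 1 base. Capitals mark runs of 6 or more of the same base. Positions are those of the array files, whose genome build and probe strand are not given in the sources used here, so none was placed in an exon, an intron or a UTR. The Ear4 probe lies at chr14:46537651-46537710, the Ear11 probe at chr14:46589285-46589344 and the Defcr4 probe at chr8:20140273-20140332. The H2-Oa probe lies at chr17:32173735-32173781, the H2-Eb1 probe at chr17:32386889-32386948 and the H2-T3 probe at chr17:34338067-34338117. The Klra2 probe lies at chr6:131305077-131305136 and the Klra22 probe at chr6:130070600-130070659.
Ear4: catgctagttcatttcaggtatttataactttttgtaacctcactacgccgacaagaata
Ear11: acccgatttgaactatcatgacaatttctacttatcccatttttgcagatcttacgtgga
Defcr4: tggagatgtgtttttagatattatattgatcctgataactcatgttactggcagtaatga
H2-Oa: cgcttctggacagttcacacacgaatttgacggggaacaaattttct
H2-Eb1: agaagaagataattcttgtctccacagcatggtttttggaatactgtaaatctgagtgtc
H2-T3: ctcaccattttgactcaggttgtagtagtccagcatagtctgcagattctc
Klra2: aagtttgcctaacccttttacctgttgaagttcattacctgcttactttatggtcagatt
Klra22: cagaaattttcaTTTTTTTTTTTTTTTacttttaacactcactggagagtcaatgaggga

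The DNA was cut with AluI (AGCT) and RsaI (GTAC) before labelling, and 0 of the 144 member probes contain either site. Their GC content ran from 21.7% to 60.0% with a median of 36.7%, against a median of 36.7% over all autosomal probes. Signal was well above background on all 22 arrays for 135 of the 144.

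Arrays differed in quality and in their signal at Atm. The noise between neighbouring probes ran from 0.152 to 0.372 (log2 SD) in the lymphoma arrays and from 0.134 to 0.546 in the others, and the share of spots too dim to stand well above background ran from 0.089% to 1.54%. The most variable probe of Atm itself read 0.95 to 1.32 in the 8 lymphoma arrays but -1.08, -0.72 and -0.63 in the no-lymphoma-labelled arrays 1, 3 and 4, and 0.44 and 0.08 in no-lymphoma-labelled arrays 5 and 6. Most arrays thus read above wildtype there and 3 below it, and since the altered part of Atm is not stated, neither sign checks a label. Over all autosomal probes, 8 of 231 pairs of arrays correlated under -0.3, the lowest at -0.48, and all 8 pairs included the no-lymphoma-labelled array 3, 4 or 9. Those 3 arrays correlated with each other at 0.82 to 0.87. With 1 dye orientation stated for all arrays, the labelled direction was kept, and counts with the sign of these 3 turned are given beside the main ones, while single values are printed with the labelled sign. Of these 3, array 9 read 1.69 at the Atm probe, above all lymphoma arrays, whereas arrays 3 and 4 read below wildtype. Array 1, at -1.08 there, was in none of the 8 pairs, and its sign was not turned. By scan time, arrays fall into 6 batches: batches 2 and 4 hold 3 and 4 no-lymphoma arrays and no lymphoma array, and batches 1, 3, 5 and 6 hold both groups.

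The first comparison asked whether copies of these genes were gained or lost in mice with lymphoma relative to mice without. The eosinophil ribonuclease genes Ear4 and Ear11 had mean log2 ratios of 1.59 and 1.38 in mice with lymphoma and 0.21 and -0.19 in mice without, and the class I gene H2-Bl was higher by 0.21. These 3 members (all higher in lymphoma) passed limma's test, of 40 tested, against 6.26% of all 24697 genes called in either direction and 5.09% called higher. No member was called lower, against 1.18% of all genes. At an unadjusted p under 0.05, 9 of 40 members passed, against 21.7% of all genes. The median difference over the 40 members was 0.04 against 0.05 over all genes, with 27 members higher and 13 lower in lymphoma (16341 and 8356 genes in all). With the sign of the no-lymphoma-labelled arrays 3, 4 and 9 turned, 4 members passed, with 10.1% of all genes called.

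**Figure D1:**
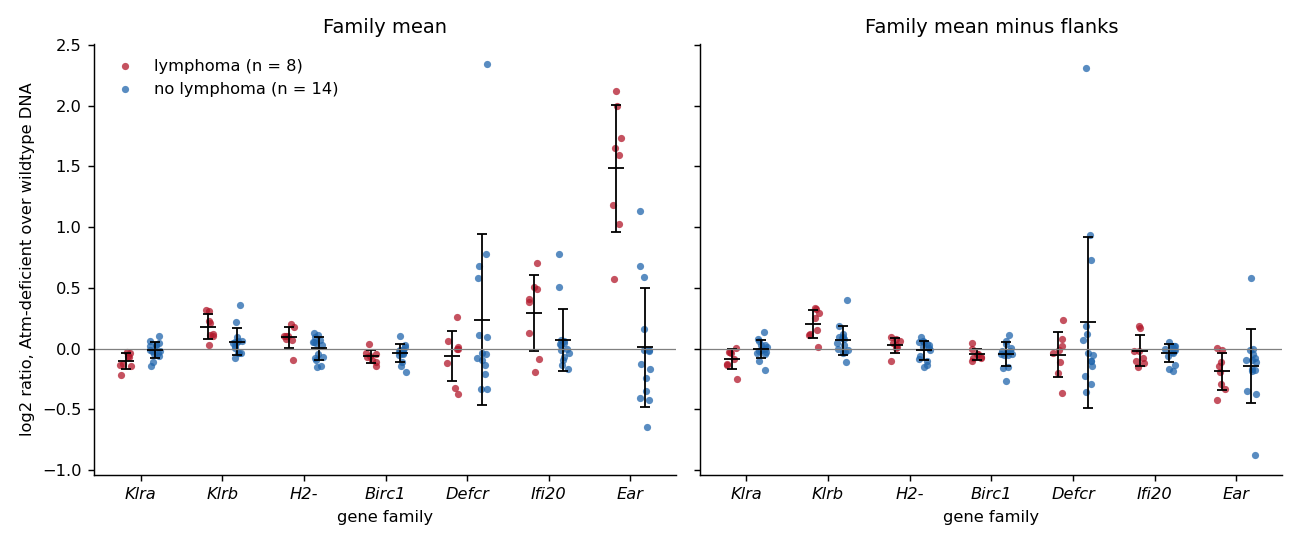
Mean log2 ratio of each gene family in each mouse (left) and the same after subtracting the median of probes 0.5 to 2 Mb on either side (right), for 8 mice with lymphoma (red) and 14 without (blue). Each point is 1 array, bars are the mean ± SD. The Ear family separates the groups most on the left (means of 1.48 and 0.01) and no longer does on the right (-0.19 and -0.14).

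Ear4 (1 probe) read 1.03, 2.23, 1.17, 1.70, 1.65, 2.18, 1.88 and 0.87 in lymphoma mice 1 to 8. In the 14 mice without lymphoma it ran from -0.43 through a median of 0.04 to 1.42, with the highest values in no-lymphoma mice 11 (1.42) and 9 (0.94). All 8 lymphoma values were positive, and the groups overlapped through these 2 mice without visible tumour. Array 9 did not share the low Atm probe values of arrays 3 and 4, and read 1.69 at that probe. With the sign of array 9 turned, its Ear4 value would be the lowest of the 14 and the overlap would rest on mouse 11 alone. The means were 1.59 ± 0.52 (SD, n = 8) and 0.21 ± 0.47 (SD, n = 14), a difference of 1.38 with SE 0.205 (limma with Benjamini-Hochberg adjustment over all genes, adjusted p = 0.000117).

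Ear11 (1 probe, now Rnase2a) read 1.02, 2.02, 1.20, 1.60, 1.53, 1.82, 1.58 and 0.27 in lymphoma mice 1 to 8. In the mice without lymphoma it ran from -1.74 through a median of -0.18 to 1.17, highest in no-lymphoma mice 13 (1.17) and 11 (0.84) and lowest in mouse 14 (-1.74) and the array labelled mouse 3 (-1.10). The groups overlapped, and Ear11 spread more widely than Ear4 among mice without lymphoma although the probes are neighbours on chromosome 14. The difference was 1.57 with SE 0.282 (limma, adjusted p = 0.000748). In no-lymphoma mouse 13, Ear11 read 1.17 while Ear4 read 0.18, and in mouse 14 the values were -1.74 and 0.45. Both Ear11 values came with weak signal of its probe, as given further on. In mouse 13 only the wildtype channel lay 1 or more below its median.

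Neither Ear gene was called apart from its surroundings. The flanks, taken as the median of probes 0.5 to 2 Mb on either side, had a mean of 1.67 in lymphoma mice and 0.15 in the others at the Ear family. Relative to them, the difference between groups was -0.13 for Ear4 and 0.05 for Ear11. Across all 40 members, 0 passed limma's test relative to flanks, against 0.0121% of all genes (3 genes), and 5 members had an unadjusted p under 0.05, against 13.5% of all genes.

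Segmentation placed both Ear genes in a gained segment (mean of 0.25 or more) in 8 of 8 lymphoma mice, with segment means of 0.82 to 2.07 and lengths of 0.528 to 3.95 Mb. The stretch shared by all 8 segments ran over chr14:46527595-46881572 and held both genes. A segment ends where the level changes, so these lengths and this stretch do not bound the gain. In lymphoma mice 2, 4, 7 and 8, whose segments were under 1 Mb, the flanks 0.5 to 2 Mb away also read 2.45, 2.07, 1.84 and 0.86. Of the 14 mice without lymphoma, mouse 11 had a gain of 1.23, mouse 9 of 0.72 and mouse 14 of 0.27, and the array labelled mouse 1 had a loss of -0.34. The gain was more frequent in lymphoma by Fisher's exact test (p = 0.0010, two-sided) but missed the threshold after adjustment over the gains and losses of all genes (adjusted p = 0.0558). No member passed, against 3.17% of all genes. The 12 measured genes of a list of 17 ribonuclease A genes and neighbours on chromosome 14, among them the angiogenin gene Ang4 and Rnase4, were all called higher in lymphoma by limma, with a median difference of 1.51. Within scan batches 1, 3, 5 and 6, Ear4 was higher in lymphoma by 1.49, 1.94, 0.25 and 1.85, and Ear11 by 1.57, 1.95, 0.84 and 0.53. Batches 1 and 6 hold only 1 no-lymphoma array each, mouse 2 and mouse 13, and the Ear11 probe of mouse 13 had weak wildtype signal. Batch 5, where the Ear4 difference was smallest, holds 1 lymphoma array (mouse 8, the lowest of the 8) and no-lymphoma mice 7, 11 and 14.

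**Figure D2:**
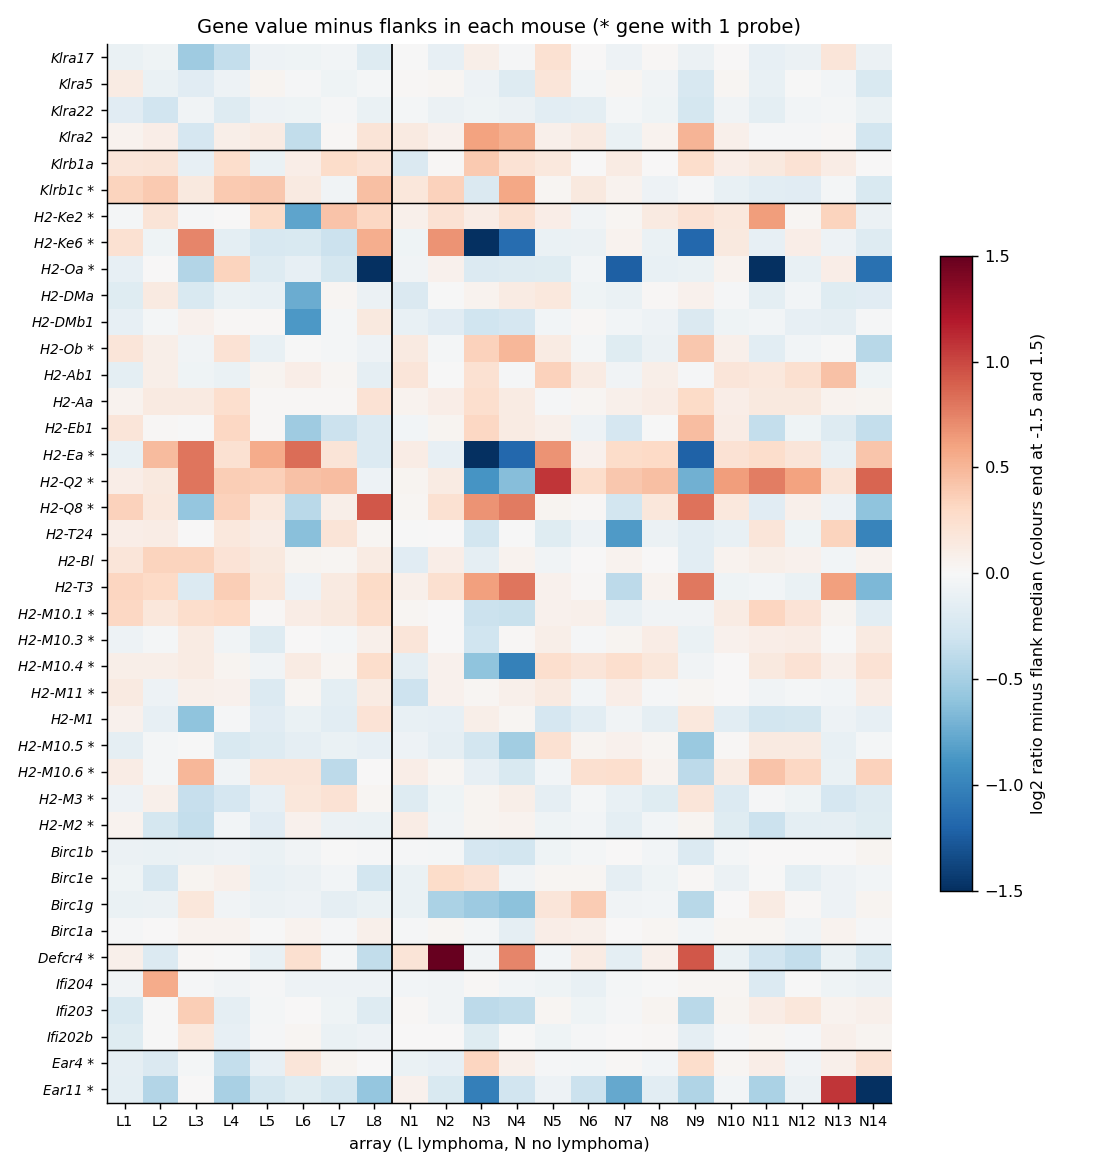
Log2 ratio minus the flank median for each of the 40 genes (rows, ordered by family and position, asterisk for genes with 1 probe) in each array (columns, L lymphoma mice 1 to 8, N no-lymphoma mice 1 to 14). Blue is below the flanks and red above. Deep colours are single cells and not whole rows or families: Defcr4 in N2, H2-Oa in L8, N7, N11 and N14, H2-Ea and H2-Ke6 in N3, N4 and N9, and Ear11 in N3, N13 and N14. Single cells of H2-M10.4 (N4) and H2-Q2 (N5) are also beyond 1 in size.

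H2-Bl, a class I gene of the T region of the MHC measured by 4 probes, read 0.05 to 0.40 in the 8 lymphoma mice (median 0.20) and -0.20 to 0.16 in the 14 others (median 0.04). All 8 lymphoma values were above 0, yet the ranges overlapped. The difference was 0.21 with SE 0.053 (limma, adjusted p = 0.0173), and 0.18 relative to flanks (adjusted p = 0.159). It lost the call with normexp background correction (0.18, adjusted p = 0.233), with scan batch as a block (0.16, adjusted p = 0.252) and without the 5 arrays of low Atm probe (0.17, adjusted p = 0.134). Within batches 1, 3, 5 and 6 it was 0.12, 0.30, 0.07 and 0.10.

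Over the 24 H2- genes the family mean ran from -0.10 to 0.20 in lymphoma mice (0.09 ± 0.09, SD, n = 8) and from -0.15 to 0.13 in the others (0.00 ± 0.10, SD, n = 14). Lymphoma mouse 6 was the lowest of its group and the no-lymphoma-labelled arrays 3 and mouse 14 the lowest of the other. The flanks had means of 0.06 and 0.02, and the difference between groups of 0.09 was 0.04 relative to them. The antigen-presenting class II genes H2-Aa and H2-Ab1 differed by 0.08 and -0.07, and the class II peptide-exchange genes H2-DMa and H2-DMb1 by -0.04 and 0.09, with adjusted p from 0.390 to 0.797 (limma). These 4 genes have 2 probes each and were chosen after their values were seen. H2-M3 (1 probe), which presents formylated bacterial peptides, differed by 0.06. Of 25 listed neighbours in the MHC region, 23 were measured, with a median difference of 0.08, and 3 were called higher in lymphoma: Tap1 and Tapbp, which load peptides onto class I, and Bat1a, an RNA helicase.

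The Ifi20 genes lay in a long gained stretch of chromosome 1 in 5 of 8 mice with lymphoma and 2 of 14 without, and no Ifi20 gene passed the test between groups. The family mean was -0.19, 0.13, 0.71, 0.41, 0.49, 0.50, -0.08 and 0.38 in lymphoma mice 1 to 8 (0.29 ± 0.31, SD, n = 8). In the mice without lymphoma it ran from -0.17 through 0.01 to 0.78 (0.07 ± 0.26, SD, n = 14), with no-lymphoma mice 11 (0.78) and 2 (0.50) far above the rest. The groups overlapped across their whole range. Lymphoma mice 3, 4, 5, 6 and 8 carried a gained segment over the 3 genes, with means of 0.42 to 0.58 and lengths of 5.42 to 28.7 Mb, as did no-lymphoma mice 2 and 11 (0.49 and 0.77, 5.68 and 14.5 Mb). By Fisher's exact test 5 of 8 against 2 of 14 gave p = 0.0524 (two-sided, adjusted p = 1.0).

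Relative to their flanks the Ifi20 genes stood at -0.02 ± 0.13 (SD, n = 8) in lymphoma mice and -0.04 ± 0.07 (SD, n = 14) in the others. Ifi203 (3 probes) differed between the groups by 0.22 (limma, adjusted p = 0.402) and Ifi202b (8 probes), which blocks the signalling of the DNA sensor Aim2, by 0.17 (adjusted p = 0.436). Ifi203 read 0.89 in both lymphoma mouse 3 and no-lymphoma mouse 11, and -0.33 to -0.40 in the no-lymphoma-labelled arrays 3, 4 and 9. Ifi204 (10 probes), a sensor of foreign DNA that was singled out after its values were seen, had a lymphoma mean of 0.34 ± 0.26 (SD, n = 8). In lymphoma mouse 2, where no gain was called, 1 of its 10 probes, at chr1:173806385-173806443, read 4.26. Of 16 listed neighbours, 10 were measured, with a median difference of 0.29 and 1 called (Slamf6, a lymphocyte surface receptor).

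Against wildtype DNA, with a mean of 0.25 or more in size required as well as limma's adjusted p, 4 of 40 members were called in mice with lymphoma, against 12.9% of all genes (10.5% called higher). They were Ear4, Ear11, Ifi204 and Klrb1c, all higher. In mice without lymphoma 0 of 40 were called by limma, against 1.23% of all genes, and 9 members had an unadjusted p under 0.05, against 23.0% of all genes. The wildtype DNA has no spread of its own in these tests. With the sign of the no-lymphoma-labelled arrays 3, 4 and 9 turned, 8 members were called with lymphoma (13.4% of all genes) and 2 without (5.58% of all genes). The call of Klrb1c was lost with normexp background correction and with the GC correction.

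No natural killer receptor gene passed the test between groups. The Klra mean was below 0 in 8 of 8 lymphoma mice (-0.21 to -0.03, mean -0.10 ± 0.06, SD, n = 8) and in 8 of 14 mice without (-0.14 to 0.11, mean -0.01 ± 0.07, SD, n = 14), and the ranges overlapped. The lymphoma values lay lower by 0.09, about as far as after subtraction of the flanks (-0.09 against -0.01). Within scan batches 1, 3 and 6 the difference was -0.11, -0.10 and -0.14, and within batch 5 it was 0.03.

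Klra2 (4 probes) ran from -0.42 through -0.06 to 0.03 in lymphoma mice and from -0.27 through 0.03 to 0.61 in the others, highest in the no-lymphoma-labelled arrays 3, 4 and 9 (0.61, 0.47 and 0.41). Its difference of -0.21 did not pass (limma, adjusted p = 0.199) and was 0.00078 with the sign of those 3 arrays turned. Klra5 (2 probes) differed by 0.03, by -0.01 with normexp or GC correction and by -0.06 with the sign of those arrays turned. Klra17, a 5-probe gene chosen after its values were seen, differed by -0.16 (adjusted p = 0.098). Klra22 (listed as a synonym of Klra1) was the member with the most probes, 47 over 449 kb. Klra17 and Klra2 spanned 41.3 and 26.5 kb, so the probes under this name may cover more than 1 gene, which was not tested. The mean over the stretch was -0.11 ± 0.10 (SD, n = 8) with lymphoma and -0.09 ± 0.08 (SD, n = 14) without.

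Klrb1a (3 probes) differed by 0.0026, with ranges of -0.15 to 0.28 in lymphoma and -0.22 to 0.36 without. Klrb1c, the gene of the NK1.1 antigen, rests on 1 probe and was singled out after its values were seen. It ran from -0.05 through 0.31 to 0.42 in lymphoma and from -0.27 through -0.05 to 0.53 without, a difference of 0.24 (limma, adjusted p = 0.110). The Klrb family mean was higher in lymphoma by 0.12 but lower by 0.02 with normexp background correction. Of 23 listed lectin-like and neighbouring genes of the same complex on chromosome 6, 14 were measured, 0 were called by limma and the median difference was -0.01.

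The Birc1 genes had family means of -0.07 ± 0.06 (SD, n = 8) with lymphoma and -0.04 ± 0.07 (SD, n = 14) without, a difference of -0.03 that turned to 0.0046 with centring on the mode and to 0.01 with normexp. Birc1g (4 probes) read between -0.14 and -0.08 in 7 lymphoma mice and 0.18 in lymphoma mouse 3. Among mice without lymphoma it ran from -0.56 to 0.37, with -0.48 in mouse 2, -0.51 and -0.56 in the arrays labelled mouse 3 and 4 and -0.40 in mouse 9, against 0.15 and 0.37 in mice 5 and 6. The other 8 lay between -0.07 and 0.07. Its SD relative to flanks was at the 91.7th percentile of genes with a like number of probes. Birc1e (Naip5, the flagellin sensor known for strain differences in resistance to Legionella) differed by -0.10 between groups (limma, adjusted p = 0.313) and was highest in no-lymphoma mouse 2 (0.27) and the array labelled mouse 3 (0.25). Of 10 listed neighbours, 8 were measured and 0 were called by limma.

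The second question was whether members varied more than other genes among mice without visible tumour. The answer differed by measure. The median SD over these 14 mice relative to flanks was 0.164 for the 40 members and 0.164 for all genes. The medians here and for lymphoma mice below were not matched for probe number. Of the members 19 of 40 have 1 probe, against 8402 of all 24697 genes. The median SD over the 14 mice was 0.253 for genes of 1 probe and 0.0914 for genes of 6 or more. Wide spread was defined as an SD above the 95th percentile of genes in the same class of probe number (1, 2, 3 to 5, or 6 and more), and 3 of 40 members met it against 5.01% of all genes, by construction. They were Defcr4, Ear11 and H2-Ea, each with 1 probe. Among lymphoma mice 2 members met it, H2-Oa and Ifi204, against 5.01% of all genes, and the median SD was 0.177 against 0.135 for all genes. Ifi204, with 1 probe at 4.26 in lymphoma mouse 2, did not meet it with the gene median. H2-Oa (1 probe), at -1.75 in lymphoma mouse 8 of scan batch 5, did not meet it with normexp background correction. The 3 genes of wide spread without lymphoma depended on the setting: with normexp background correction 4 other members met the limit (Birc1g, H2-Q8, H2-T3 and Ifi202b) and none of the 3 did. H2-Ea also left the list with the sign of the no-lymphoma-labelled arrays 3, 4 and 9 turned, without scan batch 2, without the 5 arrays of low Atm probe and without the 3 noisiest arrays. At the level of single probes the members' shares of wide and low values, given further on, lay above those of all probes. The wide probes all belonged to Klra22 or Ear11, and a single Klra22 probe gave 10 of the 61 low values. No strain is given in the labels, so the name strain-variable was not tested as such.

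**Figure D3:**
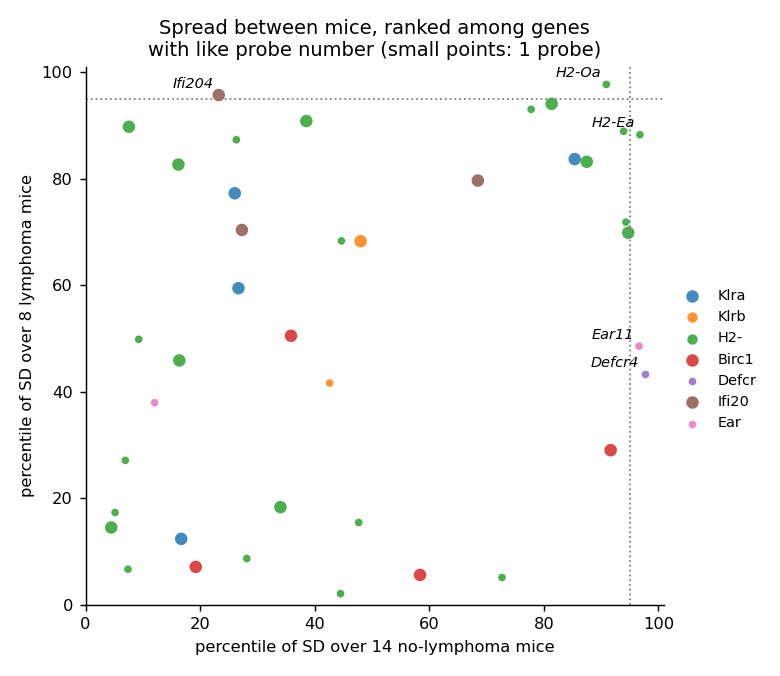
Percentile of each member's SD relative to flanks, within its class of probe number, over the 14 no-lymphoma mice (horizontal axis) and the 8 lymphoma mice (vertical axis). Small points are genes with 1 probe, colours are families and dotted lines mark the 95th percentile. Members lie over the whole range, with 3 beyond the line without lymphoma and 2 with it.

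Defcr4, the only member of the Paneth cell defensins on the array by the naming rule, stood at 2.35 in no-lymphoma mouse 2. The next values were 0.78 in the array labelled mouse 4, 0.68 in mouse 9 and 0.58 in the array labelled mouse 1, and the median of the 14 was -0.04. Lymphoma mice ran from -0.37 through -0.01 to 0.26, overlapping the others. The difference of -0.30 between groups did not pass (limma, adjusted p = 0.490).

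In no-lymphoma mouse 2 the raised signal was not limited to the Defcr4 probe. Of the 69 probes within 500 kb, 9 read 1 or more in this mouse (1.78 to 5.86), 8 of them 2 or more, whereas no other array had more than 3 probes at 1 or more. Of the 9 probes, 1 reached 1 or more in any of the other 21 arrays, and 2 were well above background on all arrays. Segmentation gave a mean of 2.17 over 8 probes and 0.175 Mb, chr8:20140273-20315106. High and low probes were mixed there: those 14.9, 21.6 and 174.8 kb from the Defcr4 probe read -0.18, 0.48 and 0.39. High probes at -291.8, -51.7, -36.6 and 193.3 kb lay outside the segment. At these 9 probes the wildtype channel of this array stood 0.42 to 2.57 log2 units under the median of each probe over the 22 arrays (-2.57 to -0.42), and the mutant channel 0.23 to 4.05 above it. Array-wide, 608 autosomal probes read 2 or more in no-lymphoma mouse 2, against 3 to 102 in the other 13 arrays labelled no lymphoma and 294 to 1291 in the lymphoma arrays. What part this played at Defcr4 was not tested. In the no-lymphoma-labelled array 1, Defcr4 lay in a gain of 0.41 over 21.8 Mb, and in mouse 9 in a loss of -0.28 over 23.8 Mb although its own probe read 0.68. Of 20 listed beta-defensin genes and other neighbours on chromosome 8, 15 were measured, 0 were called by limma and the median difference was 0.02.

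**Figure D4:**
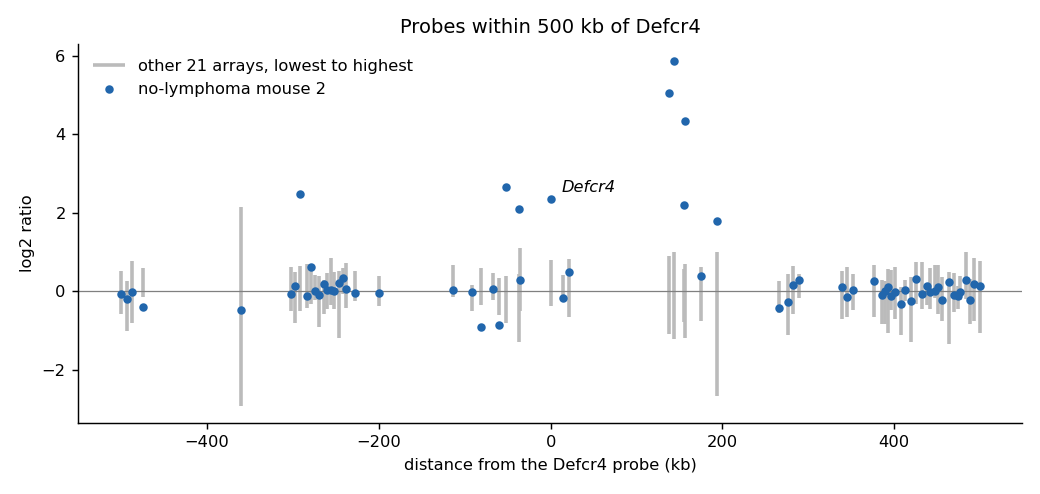
Log2 ratio of each of the 69 probes within 500 kb of Defcr4 against distance from it in kb, in no-lymphoma mouse 2 (points) and as the lowest to highest value of the other 21 arrays (grey bars). In this mouse 9 probes stand at 1.78 to 5.86, and the rest lie near the other arrays.

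The H2- genes with the widest values among mice were those with 1 or 2 probes. H2-Ea (1 probe), which encodes the class II E alpha chain that some strains lack, read -1.49 and -1.14 in the no-lymphoma-labelled arrays 3 and 4 and -1.19 in mouse 9. The other 11 arrays without lymphoma ran from -0.08 to 0.70 and the lymphoma arrays from -0.10 to 0.91. Read by channel relative to the median of the probe, as explained below, its wildtype signal stood at 1.31, 0.60 and 1.08 in the arrays 3, 4 and 9. Its mutant signal stood at -0.26, -0.63 and -0.21 there, so the low ratios came largely with raised wildtype signal. Whether the mutant DNA lacked H2-Ea was not tested. H2-T3 (2 probes), the thymus leukaemia antigen, read 0.61, 0.79 and 0.79 in the arrays 3, 4 and 9, 0.62 in no-lymphoma mouse 13, and -0.69 and -0.40 in mice 14 and 7. In mice 7, 13 and 14, 1 of its 2 probes was weak in both channels, as given below. H2-T24 (2 probes), a class I gene of the T region, was lowest in no-lymphoma mice 14 (-0.99) and 7 (-0.86) and in lymphoma mouse 6 (-0.62). The differences between groups were 0.04 for H2-T3 and 0.21 for H2-T24, neither past limma's threshold (adjusted p = 0.898 and 0.409).

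The low values of H2-T24, H2-T3 and H2-Oa gathered in arrays that share a scan batch. Each channel was therefore read on its own, as log2 signal centred on the array's autosomal median, minus the median of the probe over the 22 arrays. In all 4 arrays of scan batch 5 (lymphoma mouse 8 and no-lymphoma mice 7, 11 and 14), 7 of the 135 member probes well above background lay 1 or more below their median in both channels. Over all such autosomal probes the share was 3.55%. The 7 probes belong to Ear11, H2-DMb1, H2-Ke2, H2-Q8, H2-T24, H2-T3 and Klra2. In the mutant channel 9 did so (with H2-Eb1 and Klra17), against 4.43% of all, and in the wildtype channel the 7, against 3.66%. In batch 6, 1 member probe, that of H2-Q8, did so in both channels (1.28% of all). In batches 1 to 4 no member probe did, with shares of 0.00603%, 0.000928%, 0.0% and 0.0% of all. These counts require every array of a batch. Taken singly, no-lymphoma mouse 13 of batch 6 also lay 1 or more below in both channels at the H2-DMb1, H2-Ke2, H2-Q8, H2-T24, H2-T3 and Klra2 probes.

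For the H2-T3 probe, wildtype signal in batch 5 stood at -2.63 to -2.18 and mutant signal at -3.61 to -2.03, so that ratios of -1.10 to 0.35 rested on weak signal in both DNAs. In no-lymphoma mouse 13 of batch 6 this probe stood at -2.39 in the wildtype and -1.44 in the mutant channel. The Klra2 probe behaved alike in batch 5, at -2.39 to -2.24 in the wildtype and -3.38 to -2.25 in the mutant channel. The Ear11 probe, too, lay at -2.04 to -1.37 and -3.05 to -1.15 in the batch 5 arrays, whereas the Ear4 probe lay at -0.03 to 0.19 and -0.25 to 0.98. The lowest Ear11 value, that of no-lymphoma mouse 14, and the lowest lymphoma value, that of mouse 8, both come from batch 5. The highest Ear11 value without lymphoma, 1.17 in mouse 13 of batch 6, came with a wildtype channel at -1.91. The mutant channel there was not 1 or more below its median.

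H2-Oa (1 probe), which with H2-Ob restrains class II peptide loading, differed from these. Its ratio was -1.75 in lymphoma mouse 8, -1.20 in no-lymphoma mouse 7, -1.47 in mouse 11 and -1.12 in mouse 14. In the other 18 arrays it ran from -0.35 to 0.50, so the 4 arrays of batch 5 did not overlap the rest. The wildtype channel in batch 5 stood at -0.18 to 0.10 and the mutant channel at -1.66 to -0.99. H2-Ob (1 probe) ran from 0.03 to 0.38 in lymphoma mice and from -0.41 to 0.57 in the others. The H2-Eb1 probe shown above, 1 of 3 of this class II beta chain gene, was low in the same 4 arrays in both channels but lower in the mutant one (-0.82 to -0.59 against -1.91 to -1.47), with ratios of -1.06 to -0.66. The mice of this batch and its scans cannot be told apart.

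**Figure D5:**
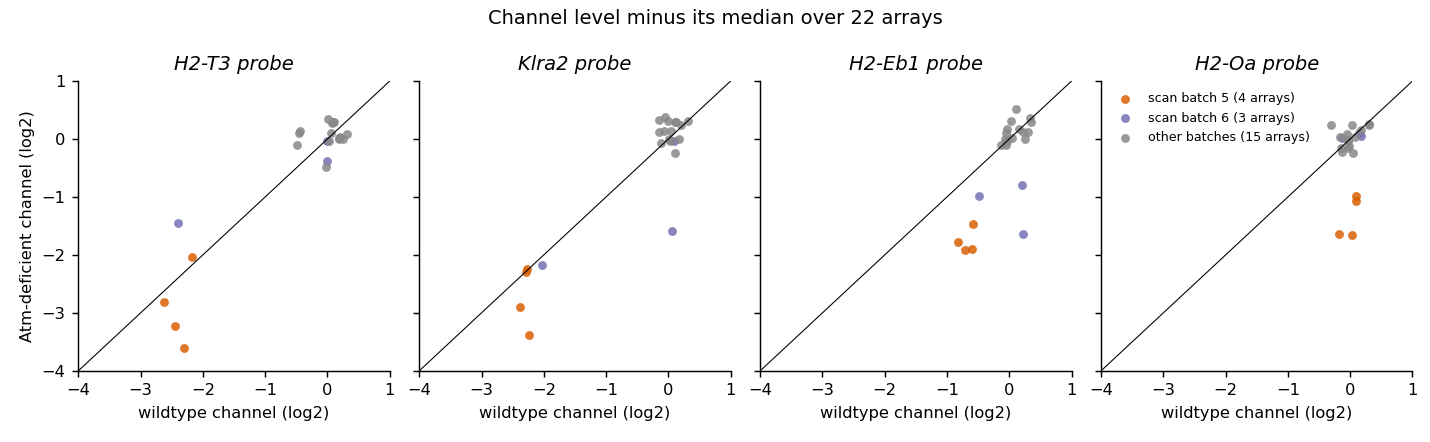
Wildtype (horizontal) against mutant (vertical) channel level, each minus the median of the probe over 22 arrays (log2), for 1 probe each of H2-T3, Klra2, H2-Eb1 and H2-Oa. Points are arrays, coloured by scan batch, and the line marks equal levels. In batch 5 the H2-T3 and Klra2 probes are low in both channels, and the H2-Oa probe in the mutant channel alone (-1.66 to -0.99).

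The departure of single probes from their segment is given as a description, with no test. Of 3168 values (144 probes in 22 arrays), 61 lay 1 or more below the segment mean (1.93%, against 0.946% of all autosomal values) and 22 lay 1 or more above it (0.694% against 0.428%). Values of 1 probe are counted once per array, so these are no independent counts. Of the 61 low values, 10 came from 1 Klra22 probe (chr6:130440076-130440135) that was not well above background on all arrays. Another 6 came from the Klra22 probe shown above. Low values were most frequent in the no-lymphoma-labelled array 3 and in mouse 14 (8 each), in the array labelled mouse 4 and in mouse 9 (7 each) and in lymphoma mouse 6 (5), arrays in which 1.84% to 4.61% of all probes did the same. The spread of single probes was taken over 11 arrays without lymphoma (leaving out the 3 noisiest), and 5 of 144 member probes exceeded the limit that 1.0% of all autosomal probes exceed (SD of 0.708). Of the 135 bright probes 2 did, the Klra22 probe shown above and the Ear11 probe, against 0.673% of all bright ones. The others past the limit were dimmer probes of Klra22, so no other member had such a probe. The Klra22 probe with its run of 15 T ranged from -2.51 to 1.89 outside batch 5, while the mean of all 47 Klra22 probes stayed between -0.30 and 0.01.

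No member had groups that did not overlap, against 0.0648% of all genes. The neighbours of the unmeasured Skint genes on chromosome 4 were read in their place. Of 10 listed, 5 were measured, 0 were called by limma and the median difference was 0.08.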

How the data were processed

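Thymocyte DNA was hybridised to 22 arrays of the Agilent mouse genome CGH design, 8 of mice with thymic lymphoma and 14 without, with groups taken from the sample titles. Spot intensity in both channels was taken from the deposited scanner files. Feature Extraction 9.1.3.1 (protocol CGH-v4_91) subtracted its background and normalised its dyes, per the file headers, and the submitters' processing notes give version 9.1. The deposited log ratio is log10 of red over green, per the file headers. The value table of the series held the same log ratios (largest difference 0.0). It served for that check and for the alternative with the deposited log ratio, and not for the main values.

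Log2 ratios were computed from the deposited processed intensity of red over green. Outlier-flagged spots (3 to 111 per array) were dropped, repeated spots were averaged per probe, and arrays were centred on their autosomal median, with no loess or quantile step. Gene names come from the 4 scanner files that carry them, joined by feature number. Of the 40 member names, 31 matched a current RefSeq symbol (GRCm38.p6, used for names alone), 6 a synonym and 3 none (Birc1g, Defcr4 and Ear4). Probe values were averaged per gene. Left out were 86 genes spread over more than 1 chromosome or over 3 Mb, none of them a member.

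Tests used lmFit and eBayes of limma 3.58.1 (R 4.3.3) on all 24697 autosomal genes, with Benjamini-Hochberg adjustment over all of them and an adjusted p under 0.05. Segmentation by least squares in Python 3.11.15 used a penalty of 3 noise variances times the logarithm of the number of probes, at least 5 probes per segment and calls at 0.25, and was tested on simulated data, as was the limma step. Alternatives covered the centring, the deposited log ratio, the median over a gene's probes and normexp background correction (on median signals, offset 50). Others covered the probe minimum, dim spots, flanks, thresholds, scan batch, sets of arrays, the turned sign and, chosen after seeing the data, a GC correction.

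Within each family, genes named were those past the test between groups, the highest and lowest gene past the test against wildtype and the 2 of widest spread without lymphoma, with genes of 1 probe taken last. The members and gene lists were chosen with earlier results of these data known. Replicates are separate mice by their numbers in the titles, whose number limits the precision.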

Additional observations from a re-analysis of the deposited data

Results flagged for a closer look

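Across 18 genes and family means looked at for a mouse far from the rest of its group, 3 values stood apart in the lymphoma group by the gap to the nearest other mouse. Chance gives about 1 such value in 20 groups. H2-T24 read -0.62 in lymphoma mouse 6, where the nearest other lymphoma mouse read 0.05. The H2- family mean was -0.10 in the same mouse, with the next at 0.07, and H2-DMa and H2-DMb1 read -0.71 and -0.83 in it. Birc1g read 0.18 in lymphoma mouse 3, where the other 7 lay between -0.14 and -0.08. The array of lymphoma mouse 6 had 1.84% of all autosomal probes 1 or more below their segment, against 0.024% to 0.241% in the other 7 lymphoma arrays.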

How the results depend on the processing

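No paired analysis was possible because the labels give no replicate numbers shared between groups. The number of members differing between groups (3) was 1 of 14 when genes with under 3 probes were left out and stayed at 2 to 4 under the other alternatives run. Over all genes that count of 1547 was 607 with scan batch as a block, 756 without the 5 arrays of low Atm probe, 974 with normexp and 2488 with the sign of the arrays labelled no-lymphoma mouse 3, 4 and 9 turned. Members away from wildtype without lymphoma (0) became 2 with the sign turned (5.58% of all genes), 1 without the 3 noisiest no-lymphoma arrays (2.24%) and 1 without scan batch 2 (1.19%). With lymphoma (4) they became 8 with normexp (12.6% of all genes), 8 with the sign turned (13.4%), 7 without the 3 noisiest arrays (14.3%), 2 with at least 3 probes (11.1%) and 2 with a mean of 0.5 or more (4.24%). Klrb1c was not among those called with normexp or the GC correction. Members of wide spread without lymphoma (3) became 5 with the sign turned, 5 without the 5 arrays of low Atm probe and 0 with at least 3 probes. With normexp the count was 4, with none of Defcr4, Ear11 and H2-Ea among them, and H2-Ea was absent under 4 further alternatives. With lymphoma (2) they became 9 with normexp, 1 with at least 3 probes and 1 with flanks not subtracted. Members past the segment test (0) became 2, Ear4 and Ear11, with normexp, the sign turned, a segment threshold of 0.35 or the GC correction. The count of 783 over all genes became 0 without scan batch 2, without the 5 arrays of low Atm probe and without the 3 noisiest arrays. The cause of these changes was not tested. In all, 66 of the values of these counts stayed within 1.5 times the main one and 19 did not. Ear4 stayed between 1.25 and 1.56 and Ear11 between 1.30 and 1.60 under the alternatives run on all batches together, both past the threshold, and H2-Bl lost its call in 3. Single arrays were not left out one at a time, since both groups hold more than 5.

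Limits: 19 of 40 members rest on 1 probe, near-identical copies can share a probe, and no build is stated. Spots of low signal in both channels make ratios imprecise, in scan batch 5 and at several probes in no-lymphoma mouse 13 of batch 6. Normexp was run on median signals because some scanner files hold no mean signal.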
